A study of Mus musculus with 30 samples.

Results

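The genes described here encode the motors that carry cargo along microtubules in the brain: kinesin heavy chains (Kif), kinesin light chains (Klc), cytoplasmic dynein subunits (Dync) and dynactin subunits (Dctn). They were chosen by gene name, as the Kif, Klc, Dync1, Dync2 and Dctn1 to Dctn6 rows of the deposited table with a mean above 0 on its log2 scale over all 30 libraries. Of 34871 genes in the table, 54 had such a name, and 49 of these passed the mean. The 5 left out were Kif2b, Kif2c, Kif12, Kif14 and Kif18b, with means from -2.56 to -0.85, and the lowest member kept was Kif20b at 0.63. The samples were brains of 8-month-old mice, 10 with the genotype Tmem106b +/+ (WT), 10 Tmem106b +/- (HET) and 10 Tmem106b -/- (KO), and the RNA came from the cerebral hemispheres. Each genotype held 3 females and 3 males labelled cohort 1, and 2 females and 2 males labelled cohort 2. The labels do not say which part of the gene was targeted, which strain was used or what the cohort number stands for.

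Kinesins mostly walk towards the plus ends of microtubules, which lie at the tips of axons, and cytoplasmic dynein with its cofactor dynactin walks back towards the cell body. Lysosomes and late endosomes, the compartment that holds the TMEM106B protein, move outward with kinesin-1, kinesin-2 and kinesin-3 motors and inward with dynein-1. Oligodendrocytes use motors of the same families to bring Mbp mRNA and membrane into the processes that form myelin. The study's design asks what changes in the brain when 1 or both copies of Tmem106b are lost. For the motors, the question is whether those of lysosomes (21 genes) or those linked to myelin (4 genes, of which Kif1b, Kif5b and Dync1h1 are in both lists) differ from the other 27.

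Tmem106b itself had values from 9.06 to 9.27 in WT (median 9.17), 8.54 to 8.62 in HET (median 8.57) and 7.43 to 7.67 in KO (median 7.52). No brain of one genotype lay within the range of another, and the KO change was -1.64 ± 0.03 (log2 ± SE, adjusted p = 3.51e-27). RNA of 15 myelin protein genes was lower in KO, with 13 of 15 members called and a median change of -0.21. Of all genes tested, 0.72% were called lower and 0.28% higher. The mean value of the 15 myelin genes ran from 8.95 to 9.15 in WT, 8.92 to 9.08 in HET and 8.73 to 8.96 in KO. Among marker genes of other cell types, 1 of 8 for microglia was called (C1qb, higher), and none of 10 for neurons, 8 for astrocytes, 6 for oligodendrocyte precursors, 9 for ependymal cells, 7 for choroid plexus and 5 for dividing cells. These are bulk samples, in which fewer cells of a type and less RNA per cell cannot be told apart.

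The motor genes spanned a wide range of levels. Values are log2 RPKM, a read count scaled by transcript length and library size, after the authors' conditional quantile normalization, so levels can be compared between genes. Kif5a, the neuronal heavy chain of kinesin-1, was the highest at a mean of 11.97 over the 30 brains, and its values did not overlap those of the next gene, Kif5c (11.22), another neuronal kinesin-1 chain. Below them came Klc1 (10.65), Dync1li2 (10.63) and Kif1a (10.55), neighbours whose ranges overlapped, then Dctn2 (10.48) and Kif1b (9.65). The lysosome-transporting motors lay at 7.62 to 11.97 with a median of 9.03, and the other motors at 0.63 to 9.19 with a median of 4.84. The lowest 6 were Kif11 (2.21), Kif15, Kif24, Kif23, Kif18a and Kif20b, which are kinesins of spindles and centrioles in dividing cells. Kif20b spanned -0.14 to 1.42 over the brains. Kif20a, a cytokinesis kinesin, stood at 5.43 and Kif22, another mitotic kinesin, at 4.84, both far above these. Kif20a overlaps Cdc23 (6.24) in the table, and Kif22 overlaps no other gene. Without strand, reads from the stretch shared with Cdc23 cannot be told apart, and their part in the Kif20a level was not tested.

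**Figure D1:**
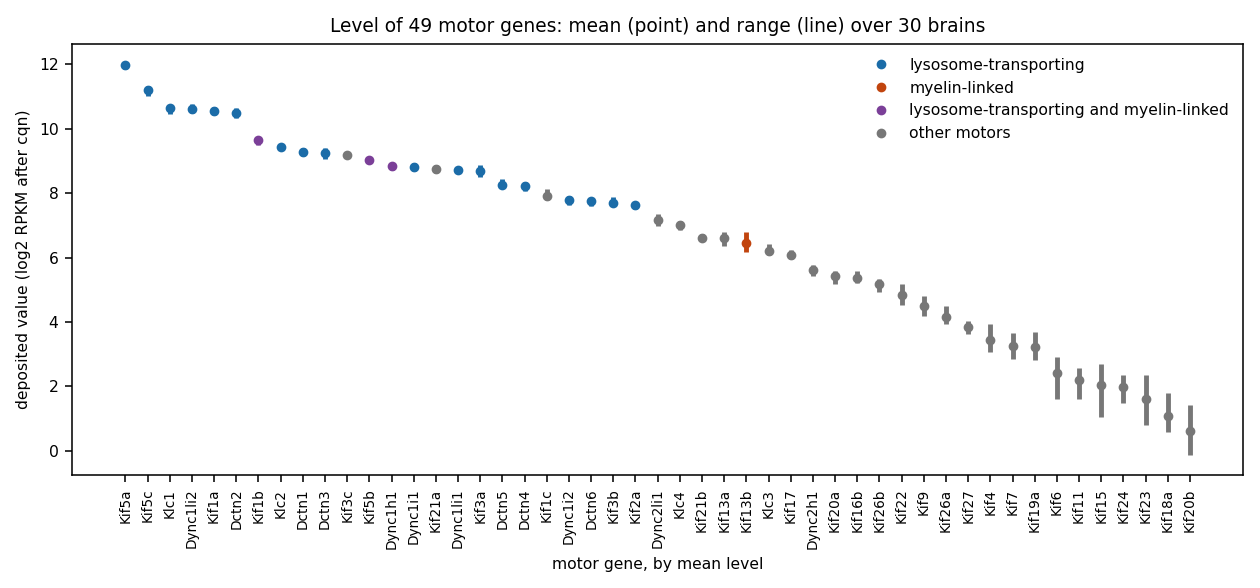
Mean (point) and range over the 30 brains (line) of each motor gene on the deposited log2 scale, ordered by mean and coloured by class. The lysosome-transporting motors sit at 7.62 or above, and the range widens among the lowest genes, down to Kif20b at 0.63.

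Loss of both Tmem106b copies moved no motor gene past the test. Of the 49 members, 0 rose and 0 fell in KO against WT (limma, adjusted p under 0.05 over 23695 genes), where 1.00% of all genes tested were called. At an unadjusted p under 0.05 there were 9 of 49 members (3 higher, 6 lower), which is 18.4%, beside 2846 of 23695 genes, which is 12.01%. Among genes with a mean above 6 it was 7 of 31 members, 22.6%, beside 16.4% of all genes at that level. The median change over the members was 0.00, as it was over all genes to within 0.01. The median size of change was 0.03 beside 0.05 over all genes. Among genes with a mean above 6 that size was 0.027 for the members and 0.030 for all genes. No member had KO values wholly outside the WT range, and the share of all genes with such a gap was not counted. The lowest adjusted p was 0.0938, for Kif2a.

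**Figure D2:**
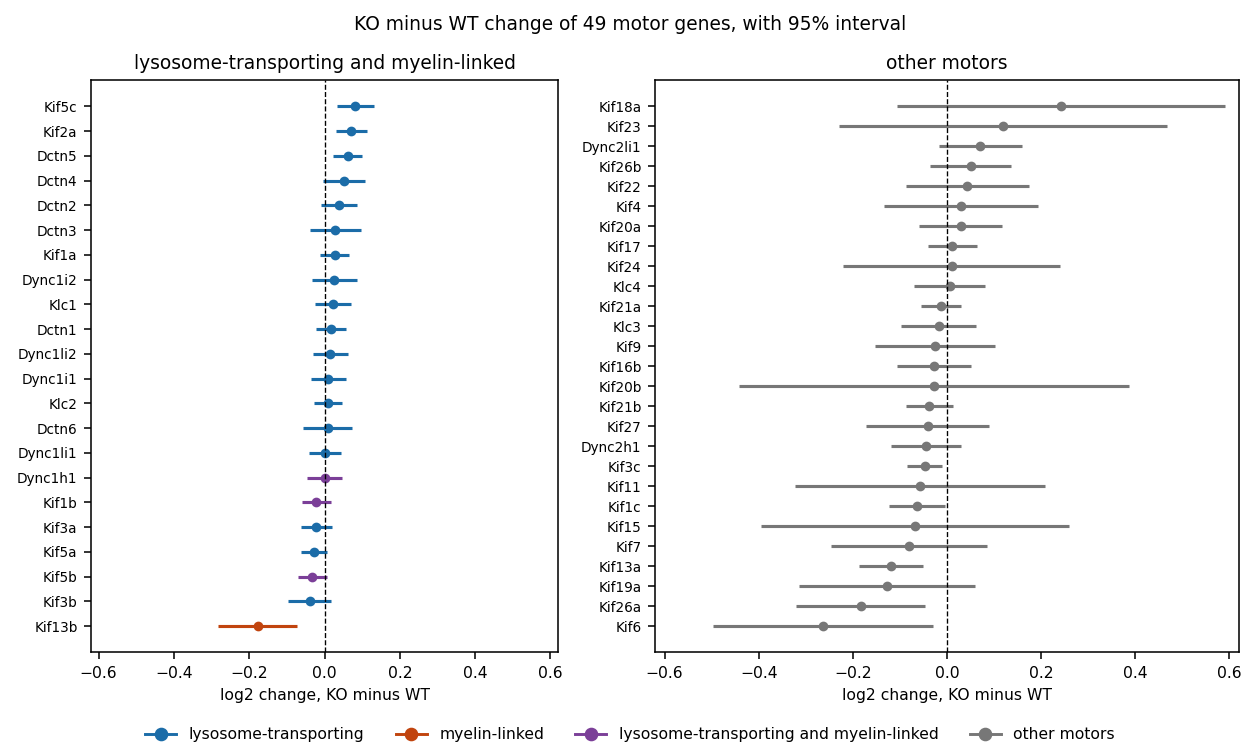
KO minus WT change (log2, point) of each motor gene with its 95% interval (line), lysosome-transporting and myelin-linked motors on the left and other motors on the right. The left panel lies close to 0 except for Kif13b at -0.18, and the widest intervals on the right belong to low genes such as Kif20b and Kif18a.

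The lysosome-transporting motors kept close to WT levels. Of 21, 0 passed the test, 16 had a change above 0 and 5 below, and their median was 0.02, with 0.02 in cohort 1 and 0.00 in cohort 2. Over all genes tested 12625 of 23695 changes were above 0. Genes measured in the same brains are not independent, so the counts of signs here and in the lists below were not tested. The 95% interval of all 21 lay between -0.15 and 0.15 log2, and that of 18 between -0.1 and 0.1. The exceptions to the narrower bound were Kif5c, Kif2a and Dctn4. Over all genes tested, 9897 of 23695 had intervals within 0.15, and 7999 of 9805 with a mean above 6. Within 0.1 the counts were 5605 of 23695 and 5138 of 9805.

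Among kinesin-1 chains, which pair a motor chain with a cargo-binding light chain, Kif5c had the highest KO change, and it did not pass the test. Kif5c (chromosome 2, 49619298 to 49774778, mm10) had values from 11.02 to 11.27 in WT (median 11.16), 11.17 to 11.34 in HET (median 11.24) and 11.02 to 11.33 in KO (median 11.29). The groups overlapped, although 6 of 10 KO brains lay above every WT brain and all 10 HET brains lay above the WT mean. Its change was 0.08 ± 0.02 (adjusted p = 0.112), 0.09 in cohort 1 and 0.07 in cohort 2, and it was called without KO replicate 7 (adjusted p = 0.0469).

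The other kinesin-1 chains did not follow Kif5c. Kif5a changed by -0.03 ± 0.02 and the broadly expressed Kif5b by -0.03 ± 0.02. The light chains Klc1 and Klc2, which link the motor to the lysosomal adaptor Plekhm2, stood at 0.02 ± 0.02 and 0.01 ± 0.02. Klc3 and Klc4, placed with the other motors, stood at -0.02 ± 0.04 and 0.01 ± 0.04. None of these 6 passed the test. Reads that fit both Kif5c and a close paralog may have been split between them in ways the sources do not record.

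Kinesin-3 and kinesin-2 motors of lysosomes were also near WT. Kif1a, which carries synaptic vesicle precursors and binds the lysosomal GTPase ARL8, changed by 0.03 ± 0.02. Kif1b, with a mitochondrial and a vesicle form, changed by -0.02 ± 0.02. The kinesin-2 partners Kif3a and Kif3b, which act together as a dimer, changed by -0.02 ± 0.02 and -0.04 ± 0.03. Kif2a, a kinesin that takes apart microtubule ends and has been tied to lysosome position, had the smallest p of all members.

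Kif2a (chromosome 13, 106958996 to 107022126, mm10) ran from 7.50 to 7.67 in WT (median 7.57), 7.61 to 7.66 in HET (median 7.62) and 7.58 to 7.70 in KO (median 7.66). Of the KO brains 9 of 10 and of the HET brains 10 of 10 lay above the WT mean, and 4 KO brains lay above every WT brain. The change of 0.07 ± 0.02 (adjusted p = 0.0938) is 5.02% on the linear scale, with a 95% interval from 2.08 to 8.04%. It was 0.11 in cohort 1, where it passed the test (adjusted p = 0.0186), and 0.01 in cohort 2. Cohort 1 alone gave 482 calls over all genes and cohort 2 alone 4. The interaction of genotype with cohort did not pass the test for Kif2a (limma, adjusted p = 0.439). Without WT replicate 7 the adjusted p of the KO change was 0.0399, without WT replicate 9 0.0357 and without KO replicate 10 0.0287. Kif2a overlaps Dimt1, whose change of 0.06 did not pass the test (limma, adjusted p = 0.512). Whether shared reads play a part was not tested.

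All 11 genes of dynein-1 and dynactin had changes at or just above 0, and 0 of them passed the test. The dynein-1 heavy chain Dync1h1, the ATPase that drives the complex, was at 8.78 to 8.93 in WT (median 8.87), 8.80 to 8.95 in HET (median 8.86) and 8.74 to 8.95 in KO (median 8.86). Its change was 0.00 ± 0.02, with an interval from -0.05 to 0.05 (adjusted p = 0.995). The genotypes covered nearly the same span. The intermediate chains Dync1i1 and Dync1i2, which bind dynactin, changed by 0.01 and 0.03, and the light intermediate chains Dync1li1 and Dync1li2, which bind cargo adaptors, by 0.00 and 0.02.

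In dynactin the median change was 0.03, with 0.05 in cohort 1 and -0.01 in cohort 2. The microtubule-binding subunit Dctn1 (p150Glued) changed by 0.02 ± 0.02 and the shoulder subunits Dctn2 and Dctn3 by 0.04 ± 0.02 and 0.03 ± 0.03. Dctn4, Dctn5 and Dctn6 cap the pointed end of its actin-like filament, and their changes were 0.05 ± 0.03, 0.06 ± 0.02 and 0.01 ± 0.03. Dctn2 stood at 0.10 in cohort 1 and -0.04 in cohort 2. For Dctn2 the interaction of genotype with cohort did not pass the test (limma, adjusted p = 0.294).

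Dctn5 (chromosome 7, 122133041 to 122149044, mm10) had the lowest p of the dynactin genes. It ran from 8.17 to 8.31 in WT (median 8.24), 8.18 to 8.25 in HET (median 8.23) and 8.24 to 8.45 in KO (median 8.28). Of the KO brains, 9 of 10 lay above the WT mean and 3 above every WT brain, while HET brains stayed within the WT range. The change had an adjusted p of 0.123 and was 0.04 in cohort 1 and 0.09 in cohort 2. KO replicate 4, at 8.45, lay apart from the other KO brains, whose highest was 8.34.

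Of the 4 myelin-linked motors, 0 passed the test, and Kif13b stood apart from the other 3. Their median change was -0.03, with -0.02 in cohort 1 and -0.05 in cohort 2, beside -0.21 for the myelin protein genes. Kif1b, needed in zebrafish for placing mbp mRNA in oligodendrocyte processes, and Kif5b and Dync1h1, also tied to Mbp mRNA or to myelination in zebrafish or cultured cells, had values given above between -0.03 and 0.00. Their intervals lay within 0.1 log2 of 0.

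Kif13b (chromosome 14, 64652531 to 64806296, mm10) encodes a kinesin-3 that binds the scaffold DLG1 and has been tied to myelin thickness in mice. Its values ran from 6.33 to 6.80 in WT (median 6.57), 6.31 to 6.60 in HET (median 6.49) and 6.17 to 6.60 in KO (median 6.40). The KO and WT ranges overlapped, with 9 of 10 KO brains below the WT mean and 4 below every WT brain. The change was -0.18 ± 0.05 (adjusted p = 0.107), which is -11.6% with a 95% interval from -17.9 to -4.88%. Within cohort 1 it was -0.26 and passed the test (adjusted p = 0.0281), and within cohort 2 it was -0.06. The interaction of genotype with cohort did not pass the test for Kif13b (limma, adjusted p = 0.601). Without KO replicate 10 the KO change was -0.21 and its adjusted p 0.0174. Dlg1, the partner of Kif13b, changed by -0.00 ± 0.02. The values of Kif13b beside the myelin RNA of each brain are given further on.

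The other 27 motors had a median change of -0.03, with 10 above 0 and 17 below, and 0 passed the test. Their intervals were wider, within 0.15 log2 of 0 for 11 of 27, and their levels lower than those of the lysosome-transporting motors. Kif13a, the paralog of Kif13b, moves recycling endosomes and melanosome cargo. It was the only member with all 10 KO brains on the same side of the WT mean. The share of all genes with such a split was not counted. Kif13a (chromosome 13, 46749087 to 46929718, mm10) ran from 6.52 to 6.80 in WT (median 6.67), 6.52 to 6.67 in HET (median 6.61) and 6.37 to 6.66 in KO (median 6.59). All 10 HET brains also lay below the WT mean, yet only 3 KO brains lay below every WT brain.

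The Kif13a change was -0.12 ± 0.03 (adjusted p = 0.0958), -0.13 in cohort 1 and -0.11 in cohort 2. It was called without WT replicate 10 (adjusted p = 0.0365) and without KO replicate 10 (adjusted p = 0.0477). Among the remaining kinesin-3 genes, Kif1c, a carrier of dense-core vesicles, changed by -0.06 ± 0.03, -0.11 in cohort 1 and -0.00 in cohort 2. Kif16b, which moves early endosomes, changed by -0.03 ± 0.04. Of 6 kinesin-3 genes kept, 5 had a change below 0, with a median of -0.05.

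Kif26a, an atypical kinesin without motor ATPase activity, passed the test in cohort 1 alone. Its values ran from 3.99 to 4.51 in WT (median 4.29), 4.11 to 4.35 in HET (median 4.18) and 3.95 to 4.31 in KO (median 4.03). The change was -0.18 ± 0.07 (adjusted p = 0.229), being -0.36 in cohort 1 (adjusted p = 0.0147) and 0.08 in cohort 2. The interaction of genotype with cohort had an adjusted p of 0.185 for Kif26a, so that the difference between cohorts did not pass the test. Kif3c, a neuronal kinesin-2, was at 9.16 to 9.28 in WT (median 9.20), 9.16 to 9.27 in HET (median 9.20) and 9.09 to 9.23 in KO (median 9.15). Its change was -0.05 ± 0.02 (adjusted p = 0.256), and 7 of 10 KO brains lay below every WT brain.

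**Figure D3:**
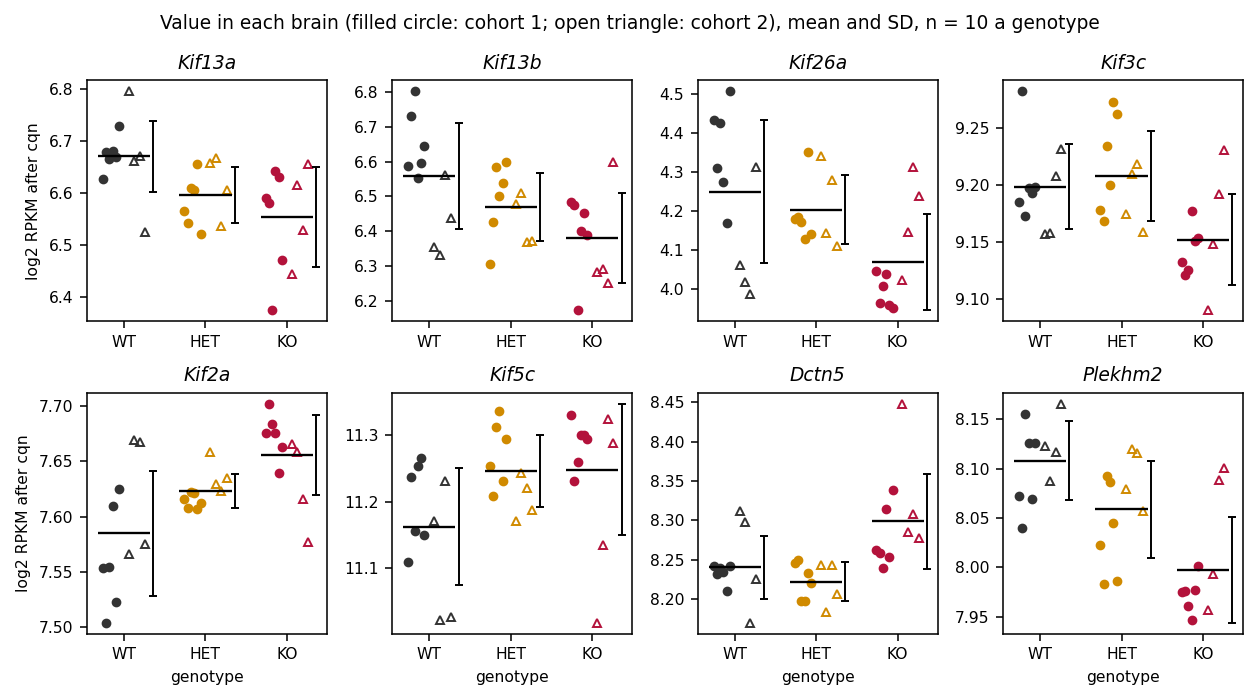
Deposited log2 value of 7 motor genes and the adaptor Plekhm2 in each brain by genotype, with filled circles for cohort 1, open triangles for cohort 2, a bar for the mean and an error bar for the SD (n = 10 a genotype). KO and WT points overlap in every panel; the KO means of Kif13a, Kif13b and Plekhm2 lie below those of WT and that of Kif2a above, and the low KO points of Kif26a are mostly circles of cohort 1.

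Motors of cilia and of cell division gave no call. Of 11 ciliary motors kept, 0 passed the test, with 3 changes above 0 and 8 below and a median of -0.04. Kif6, found in ependymal cilia, had the lowest change of all members, -0.26 ± 0.11 (adjusted p = 0.337), at a level of 2.41 near the bottom of the set. Dynein-2, which returns cargo from the tip of the cilium, was split between Dync2h1 (-0.04 ± 0.04) and Dync2li1 (0.07 ± 0.04), neither past the test. The ependymal markers had a median change of 0.05, with -0.05 in cohort 1 and 0.19 in cohort 2, and 0 of 9 passed the test.

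Among further ciliary genes, Kif19a stood at -0.13 ± 0.09, Kif7 of hedgehog signalling at -0.08 ± 0.08, and Kif17, which also carries NMDA receptor subunits in dendrites, at 0.01 ± 0.03. Of 8 mitotic kinesins kept, 0 passed the test, and the median was 0.03. Kif18a, which limits chromosome oscillation on the spindle, had the highest change of all members, 0.24 ± 0.17 (adjusted p = 0.624), and Kif15 the lowest of its list, -0.07 ± 0.16. In the kinesin-4 family Kif4 stood at 0.03 ± 0.08, Kif21a at -0.01 ± 0.02 and Kif21b at -0.04 ± 0.02.

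Among genes that link or regulate these motors, Plekhm2 fell in KO brains. PLEKHM2, also called SKIP, ties the lysosomal GTPase ARL8 to kinesin-1 light chains. Plekhm2 (chromosome 4, 141625734 to 141664899, mm10) ran from 8.04 to 8.17 in WT (median 8.12), 7.98 to 8.12 in HET (median 8.07) and 7.95 to 8.10 in KO (median 7.98). All 10 KO brains lay below the WT mean and 8 of 10 below every WT brain, although the ranges overlapped. It fell by 0.11 ± 0.02 on the log2 scale (adjusted p = 0.00311), and HET brains stood at -0.05 ± 0.02 (adjusted p = 0.762). The KO change was -0.13 in cohort 1, where it was called (adjusted p = 0.0212). It was not called in cohort 2 (-0.09, adjusted p = 0.999), in females (-0.07), in males (-0.16) or with the mean of the myelin genes in the fit (-0.13, adjusted p = 0.274).

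Plekhm2 was the 1 gene of 19 lysosome motor adaptors to pass the test. Over all genes tested 1.00% passed, and 1.785% of those with a mean above 6. Whether 1 call in this list exceeds that share was not tested. ARL8 itself was near WT, with Arl8a at -0.01 ± 0.03 and Arl8b at -0.01 ± 0.02, and the highest change of the list was Bloc1s1, a BORC subunit, at 0.04 ± 0.04. Map6, a microtubule protein reported to bind TMEM106B, changed by 0.01 ± 0.02. Of 23 dynein regulators 0 passed the test, with Dynlrb2 (-0.17 ± 0.13) and Spdl1 (0.22 ± 0.16) at the ends of the list. Of 14 kinesin partners 0 passed the test, from Kifc2 (-0.11 ± 0.03, adjusted p = 0.118) to Cenpe (0.32 ± 0.15). At an unadjusted p under 0.05 (limma) there were 6 of 14 partners, 3 higher and 3 lower. The same count was 3 of 19 adaptors and 4 of 23 regulators, beside 12.01% of all genes tested and 16.4% of those with a mean above 6. The median changes of these lists were -0.00 for adaptors, 0.02 for regulators and -0.00 for partners.

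Loss of 1 copy, and loss of the remaining copy, gave no call among the motors either. These comparisons share brains with KO against WT, so their values are given side by side. In HET against WT 0 of 49 members were called, where 0.00422% of all genes tested were called. At an unadjusted p under 0.05 there were 5 members (limma), namely Kif5c (0.07), Dctn1 (0.05), Kif13a (-0.08), Kif16b (-0.09) and Kif1c (-0.06), and 1497 of all genes. In KO against HET 0 of 49 were called, beside 0.118% of all genes, and 2 members had an unadjusted p under 0.05, Dctn5 (0.07) and Kif3c (-0.05), beside 2052 of all genes. The HET means of Kif13b (6.47), Kif13a (6.60) and Kif2a (7.62) lay between those of WT (6.56, 6.67 and 7.59) and KO (6.38, 6.55 and 7.66), while that of Kif5c was 11.25 in both HET and KO, above the 11.16 of WT.

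The motors were next set against the myelin RNA of each brain, as the slope of a gene on the mean of the 15 myelin protein genes with genotype, sex, cohort and RNA integrity in the fit. For this slope 0 of 49 members were called, beside 0.0464% of all genes, and 3 had an unadjusted p under 0.05 (limma), beside 2246 of all genes. The 3 were Dync1i2 (slope 0.60 ± 0.23), Kif3b (-0.54 ± 0.23) and Kif3c (-0.31 ± 0.15), in log2 per log2 unit. Of the 15 myelin genes that make up the mean, only 4 were called for this slope. A count of 0 among the motors therefore says little. Among myelin-linked motors the slope was 0.27 ± 0.46 for Kif13b, 0.22 ± 0.16 for Kif1b, 0.27 ± 0.16 for Kif5b and 0.22 ± 0.20 for Dync1h1. With the myelin mean in the fit, Kif1b (0.03 ± 0.04) and Kif5b (0.03 ± 0.04) turned from below to above 0 in KO against WT. In the same fit the KO change was -0.12 ± 0.12 for Kif13b, -0.05 ± 0.08 for Kif13a, 0.02 ± 0.05 for Kif5c and 0.14 ± 0.04 for Kif2a (adjusted p = 0.213), with errors wider than without the myelin mean.

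Between the cohort labels 15 of 49 motor genes passed the test, 30.6%, and 14 of them were lower in cohort 2 than in cohort 1. Over all genes tested 17.5% were called between cohorts, 9.42% lower and 8.09% higher, and among genes with a mean above 6 the share was 26.6%, beside 14 of 31 members at that level. This comparison was added after its values were seen. Of the lysosome-transporting motors 11 of 21 fell, of the myelin-linked ones 1 of 4 (Kif1b, also among the 11), and of the other motors 3 fell and 1 rose. All 14 were lower in cohort 2 within each of the 3 genotypes, which is no separate test, since the 14 were picked from the same brains.

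Kif3a (chromosome 11, 53567379 to 53601967, mm10), the shared motor chain of kinesin-2, had the lowest p between cohorts and the largest change among the called members. It ran from 8.70 to 8.88 in the 18 brains of cohort 1 (median 8.76) and from 8.52 to 8.64 in the 12 of cohort 2 (median 8.57). It was the 1 member of 49 whose cohort ranges did not overlap, and the share of all genes with such a gap was not counted. It fell by 0.20 ± 0.02 on the log2 scale (adjusted p = 5.97e-08), with means lower by 0.21 in WT, 0.22 in HET and 0.19 in KO.

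The other called members changed less than Kif3a. Kif1a fell by 0.10 ± 0.02, Klc1 by 0.10 ± 0.02, Dync1i1 by 0.10 ± 0.02, Dctn2 by 0.10 ± 0.02 and Kif5c by 0.09 ± 0.02. Dync2h1, Kif17, Kif1b, Dctn1, Kif21a, Klc2, Dync1li1 and Dync1li2 fell by 0.06 to 0.09. For Kif1a, 18 brains of cohort 1 spanned 10.50 to 10.69 and 12 of cohort 2 spanned 10.43 to 10.56. Kif1c rose by 0.11 ± 0.03 (adjusted p = 0.00308), and all 12 brains of cohort 2 lay above the cohort 1 mean, with values from 7.92 to 8.09 against 7.81 to 8.14.

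Some marker genes of cell types also differed between cohorts. Of 15 myelin protein genes 6 were higher in cohort 2 (mean of the list 8.73 to 9.09 in cohort 1 and 8.79 to 9.15 in cohort 2), and of 10 neuron genes 3 were lower and 1 higher (10.83 to 10.93 and 10.85 to 10.93). Of the other markers, 1 of 6 for oligodendrocyte precursors was higher, 1 of 8 for astrocytes was lower, and none of 8 for microglia, 9 for ependymal cells, 7 for choroid plexus and 5 for dividing cells was called. These counts stand beside the 17.5% of all genes called. RNA integrity was 9.39 ± 0.24 (SD, n = 18) in cohort 1 and 9.22 ± 0.46 (SD, n = 12) in cohort 2 and was a term of the fit. The part of these in the motor genes was not tested beyond adding the myelin mean. The count of motor genes was 7 with the myelin mean as a further term, where the count over all genes went from 4150 to 1747. It was 2 in females alone (Kif3a and Kif1c), beside 100 of all genes, and 4 in males alone (Kif1a, Kif5c, Kif3a and Klc1), beside 1429 of all genes.

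**Figure D4:**
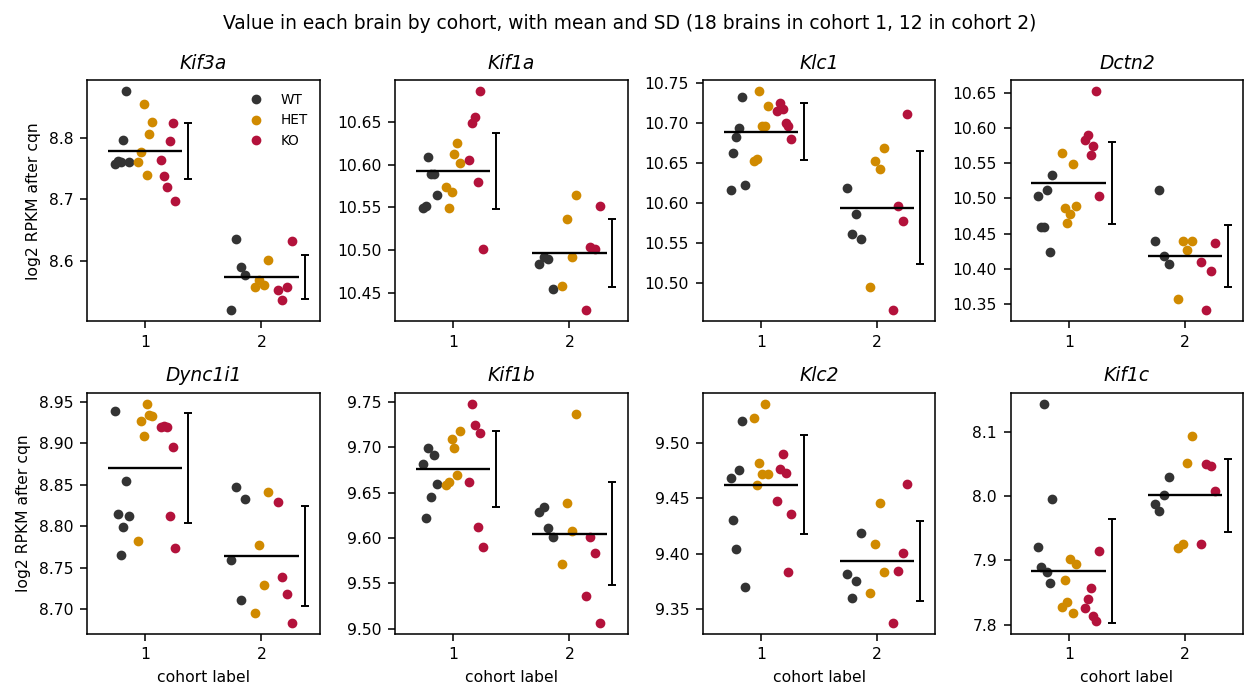
Deposited log2 value of 8 motor genes in each brain by cohort label, coloured by genotype, with a bar for the mean and an error bar for the SD (18 brains in cohort 1, 12 in cohort 2). The Kif3a cohorts are apart in all genotypes, the other 6 genes that fell overlap, and Kif1c lies higher in cohort 2.

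Whether the KO effect differed between cohorts or sexes was tested for each gene. For the interaction with cohort 0 of 49 members were called, beside 0.0338% of all genes, with 6 members and 2020 of all genes at an unadjusted p under 0.05 (limma). For the interaction with sex 0 of 49 were called, beside 0% of all genes, with 3 members and 1682 of all genes at an unadjusted p under 0.05. The cohort 2 changes of Kif2a and Kif13b, which were nearer 0, and that of Kif26a, which had the opposite sign, were therefore not shown to differ from those of cohort 1.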

How the data were processed

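RNA of mouse brains was sequenced, 1 library for each of 30 mice. Reads were aligned to mm10 with TopHat2 2.0.12 and Bowtie 1.1.0, as listed in the submitters' processing notes. How reads were counted, with which annotation and whether by strand, is not stated there. The deposited values are log2 RPKM that the authors had put through conditional quantile normalization, and come with a column of gene length in bases that was used only as a label. Library medians lay between 2.82 and 2.91 and lower quartiles between -1.20 and -0.07, and no libraries were identical. Depth is unknown, so the spread between mice gives the precision. With strand unknown, 26 of 49 members overlap another gene of the table, and reads shared by paralogs may have been split in ways not given here.

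Genes with a mean above 0 (23695) were fitted with limma 3.58.1 (R 4.3.3; eBayes with trend) on genotype, sex, cohort and RNA integrity number over all 30 libraries, and p values were adjusted by Benjamini-Hochberg over all of them. The script was tested on simulated data. A gene is called at an adjusted p under 0.05; SE and 95% intervals are from the fit. Replicates were numbered in the order of the samples. The members, lists and tests were chosen with earlier results of these data known. Named are every called member, the lysosome-transporting and myelin-linked members, the extremes of each list and the members with the smallest p; some further members were named after their values were seen. The filter, covariates, variance prior, normalization, cohort, sex and libraries in the fit were varied.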

Additional observations from a re-analysis of the deposited data

Results flagged for a closer look

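In 147 groups of 10 brains (49 members in 3 genotypes), 5 held a brain far from the rest of its group by Dixon's test, or 3.40%, where chance gives about 1 in 20. Klc1 was 10.49 in HET replicate 2, with the next brain at 10.64. Dctn5 was 8.45 in KO replicate 4, with the next at 8.34. KO replicate 5 was lowest for both Kif16b (5.22, next 5.35) and Kif20a (5.18, next 5.39), and HET replicate 5 was lowest for Kif20a (5.22, next 5.38).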

How the results depend on the processing

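The count of 0 motor genes called in KO against WT became 3 in cohort 1 alone (Kif2a, Kif13b and Kif26a, beside 482 of all genes) and was 0 under the other 10 alternatives and in cohort 2 and either sex alone. Calls over all genes went from 237 to 4 in cohort 2, 13 in females, 15 in males and 4 with the myelin mean, so a 0 there says little about the motors. With 1 library left out in turn it ran from 0 to 3, above 0 in 5 of 30 cases: without WT replicate 7, WT replicate 9, WT replicate 10 or KO replicate 7 (1 gene each) and without KO replicate 10 (3 genes, beside 388 of all genes). The counts for HET against WT, KO against HET, the myelin slope and both interactions were 0 under every alternative run. The median of the lysosome-transporting motors ran from 0.00 to 0.03, and that of the other motors from -0.04 to -0.01. The median of the myelin-linked motors went from -0.0269 to 0.0297 with the myelin mean as a further term. The 15 calls between cohorts became 2 in females, 4 in males and 7 with the myelin mean (100, 1429 and 1747 over all genes), and 13 to 17 with 1 library left out. Plekhm2 kept its call with any 1 library left out (adjusted p 0.00114 to 0.0113) and lost it in cohort 2 (-0.09), females (-0.07), males (-0.16) and with the myelin mean (-0.13). Where subsets lost calls they held fewer mice; otherwise the cause was not tested. No paired analysis was possible, because replicates were numbered in the order of the samples and the labels record no pairing of mice across genotypes. Alternatives for the slope, interactions, cohorts and Plekhm2 were added after seeing the data. Depth is unknown, and changes under about 0.05 log2 lie within the intervals of most members.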
